A study of Oryctolagus cuniculus with 30 samples.

Results

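The genes of extracellular Wnt signalling were followed in rabbit vocal fold mucosa by RNA sequencing. They were taken by symbol alone: every WNT ligand, R-spondin (RSPO1 to RSPO4), Frizzled receptor (FZD), the co-receptors LRP5 and LRP6, and the secreted inhibitors SFRP1 to SFRP5, FRZB, DKK1 to DKK4 and WIF1. This gave 43 of the 31346 genes in the count tables, made up of 18 ligands, 4 R-spondins, 9 receptors, 2 co-receptors and 10 secreted inhibitors. The count tables held no gene under the symbols WNT7B or FZD10. A filter on low counts kept 40 of the 43 genes for testing.

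Wnt ligands are lipid-modified secreted proteins that bind a Frizzled receptor together with LRP5 or LRP6, which stabilises beta-catenin and switches on target genes, or with other partners that steer cell polarity. R-spondins amplify the signal by keeping Frizzled receptors at the cell surface. Secreted Frizzled-related proteins (SFRP1 to SFRP5 and FRZB) and WIF1 bind the ligands, whereas most DKK proteins block LRP5 and LRP6. The pathway is known for its parts in epithelial renewal, fibroblast activation and fibrosis.

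The series held 15 New Zealand white rabbits, 3 in each of 5 groups, and both vocal folds of every animal were sequenced as separate libraries. In 4 groups the superficial mucosa had been stripped from both folds. Of these, Col1 animals received collagen type I, VFLP_man and VFLP_au animals received the materials labelled VFLP (man) and VFLP (au), and injury_only animals received no injection. Injections were of 20 µL per fold, 7 days after injury. The series title describes the VFLP materials as hydrogels derived from vocal fold lamina propria, and the labels do not explain the 2 suffixes. Injured animals are labelled as killed 28 days after treatment, which leaves the start of the interval undefined for injury_only. Control animals were neither injured nor injected, and their labels list no time. The strain was the same in all groups, and the labels name no allele or transgene.

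Depth per library was 14.2 to 31.9 M reads on genes (median 22.7 M), and the 2 folds of an animal summed to 34.7 to 56.3 M. All Col1, VFLP_man and VFLP_au libraries were labelled batch D and all control libraries batch C, with 5 of the 6 injury_only libraries in batch C and 1 in batch D. Markers of squamous epithelium and fibroblasts, the cells of this mucosa, were detected in every group. The makeup of the samples differed by group, as the plot of marker lists shows. Skeletal muscle markers (11 of 15 found) took 0.185 to 0.533% of reads in Col1, 0.0388 to 0.266% in VFLP_man, 0.367 to 0.838% in VFLP_au and 0.566 to 1.21% in injury_only, against 2.24 to 3.64% in control. Fibroblast markers (11 of 11 found) took 0.046 to 0.129% in Col1, 0.0742 to 0.113% in VFLP_man, 0.102 to 0.171% in VFLP_au and 0.122 to 0.199% in injury_only, against 0.263 to 0.275% in control. None of the markers found for these 2 cell types was at 0 in any group. Superficial squamous epithelium markers (7 of 7 found) took 2.33 to 3.4% of reads in Col1, 2.03 to 3.67% in VFLP_man and 2.1 to 3.26% in VFLP_au. They took 1.77 to 1.93% in injury_only and 0.705 to 1.96% in control. Basal squamous epithelium markers (5 of 6 found) took 0.31 to 0.442%, 0.365 to 0.461%, 0.316 to 0.455%, 0.264 to 0.319% and 0.0986 to 0.331% in the same order. In bulk tissue, fewer cells of a type and less RNA of a gene per cell cannot be told apart.

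**Figure D1:**
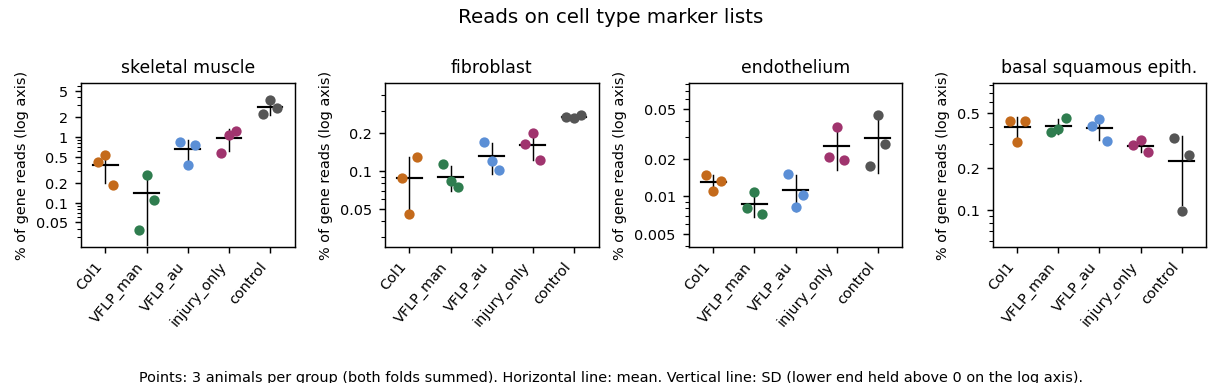
Reads on 4 lists of cell type markers, as a percentage of gene reads on a log axis, for the 3 animals of each group (points, with the mean as a horizontal line and the SD as a vertical line). Skeletal muscle and fibroblast markers were highest in the 3 control animals, at 2.24 to 3.64% and 0.263 to 0.275%.

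Levels below are CPM (counts scaled by library size) after TMM scaling, for the 3 animals of a group in the order of their numbers, with both folds summed. They compare 1 gene across groups and not genes with each other, since gene lengths were not taken into account. Fold changes, their standard errors on the log2 scale and adjusted p-values come from edgeR. Adjustment is by Benjamini-Hochberg over all genes tested, with 0.05 as the threshold. This is the main fit, and other settings are named where they are used.

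Stripping injury without injection was compared first with uninjured mucosa. Secreted inhibitors and receptors made up most of what changed. FRZB and WIF1, the R-spondin RSPO3 and the receptors FZD7 and FZD2 were lower in injury_only, and the receptor FZD1 was higher. None of 16 ligands passed in edgeR, where 5 had an unadjusted p under 0.05, and DESeq2 called 3 (WNT5A, WNT9A and WNT11). In all, 6 of 40 Wnt genes (15%) passed, 1 higher and 5 lower, whereas 22.1% of the 17815 genes tested passed (8.33% higher and 13.7% lower). Without adjustment, p was under 0.05 for 16 Wnt genes, 40% of those tested, beside 36.8% of all genes. The median log2 fold change was -0.17 over the 40 Wnt genes and 0.02 over all genes, and by role it was 0.13 for 16 ligands, -1.01 for 3 R-spondins, 0.08 for 9 receptors and -0.82 for 10 secreted inhibitors.

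FRZB, a decoy that binds Wnt ligands outside the cell and is known from cartilage, was at 23.5, 45.2 and 34.8 CPM in injury_only animals, against 193, 376 and 274 CPM in control animals. Every injury_only animal lay far below every control animal. The CPM of injury_only animal 1 include its batch D fold (9.57 CPM, beside 37.6 CPM on the left), as for the genes below. The fall was 7.19-fold (log2 -2.85, SE 0.48, edgeR adjusted p = 0.0029). The batch term already keeps this comparison within batch C. Leaving out the injury_only library of batch D (log2 -2.84) is therefore no separate check. With the muscle marker level as a covariate it was -2.31 (edgeR adjusted p = 0.044). The left folds alone gave -2.13 (edgeR adjusted p = 0.14), which ends the call. Cartilage markers took 0.00335 to 0.0044% of reads in injury_only and 0.00286 to 0.00332% in control, and 1 of 5 tested was lower in injury_only, with a median log2 change of 0.33 over the 5. Of the 7 cartilage markers, MATN1 had no read in either group and the others were detected in both.

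RSPO3, an R-spondin also known from endothelium and wound tissue, stood at 3.55, 3.04 and 1.88 CPM in injury_only and at 4.91, 12.4 and 8.1 CPM in control. The lowest control animal lay close to the highest injury_only animal, and the groups did not overlap. RSPO3 fell 2.82-fold (SE 0.38 log2 units, edgeR adjusted p = 0.017). WIF1, an inhibitor that binds Wnt ligands directly, stood at 13.9, 8.31 and 7.94 CPM in injury_only and at 22.4, 17.5 and 26.1 CPM in control. It was lower in each injury_only animal than in any control animal, by 2.2-fold in the fit (SE 0.34, edgeR adjusted p = 0.033). Some reads at WIF1 lie where another gene overlaps it, since counting without strand lowered its total to 0.864 of the stranded one.

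FZD7, a receptor linked to epithelial stem cells, had 25, 26 and 30.3 CPM in injury_only and 46.3, 82.4 and 60.6 CPM in control. All injury_only animals were alike and below control. FZD7 fell 2.27-fold (SE 0.33, edgeR adjusted p = 0.023). FZD2, a receptor for WNT5A among others, had 4.1, 3.4 and 3.52 CPM in injury_only and 4.74, 6.32 and 7.13 CPM in control, with no overlap and a fall of 1.76-fold (SE 0.24, edgeR adjusted p = 0.028). FZD1 went the other way, with 17.5, 18.4 and 16.6 CPM in injury_only and 14, 9.52 and 10.4 CPM in control. Its rise was 1.52-fold (SE 0.18, edgeR adjusted p = 0.033). Each injury_only animal was above each control animal.

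All 6 genes thus had groups that did not overlap. Over the whole set, 18 of 40 Wnt genes did not overlap, near the 42.3% of all genes that did not. The FRZB call held with each of the 6 animals left out in turn. Other calls depended on single animals. Without control animal 2, 2 Wnt genes passed (FRZB and WIF1), and without injury_only animal 3, 2 passed (FRZB and FZD7). Without control animal 3, injury_only animal 1 or injury_only animal 2, 3 passed. In the order given, 1733, 2779, 2803, 1981 and 2924 genes passed in all, beside 3933 with every animal. Muscle markers moved with these results, 7 of 11 tested being lower in injury_only and none higher, and so did fibroblast markers, with 5 of 11 lower. With muscle level as a covariate, 3 Wnt genes passed, FRZB, WNT11 and WNT5A, all lower in injury_only, and 1404 genes in all. Muscle shares did not overlap between the groups, so this covariate and the group can scarcely be told apart. Secretory gland markers (8 of 9 found) took 2.8 to 4.98% of reads in injury_only and 0.0351 to 0.776% in control, with 4 of 8 higher and none lower. Ciliated cell markers (8 of 8 found) took 0.0104 to 0.0479% and 0.000392 to 0.00462%, with 2 of 8 higher and none lower. BPIFB2, a gland marker, had no read in control. The parts of fibroblast, gland and ciliated cell content were not tested.

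FZD7 and FZD1, both past the threshold in opposite directions, were also set against each other within each animal. The ratio of FZD7 to FZD1 reads is free of scaling between libraries. It was 0.996, 1.32 and 0.593 in Col1, 0.331, 0.657 and 0.713 in VFLP_man, 0.791, 0.644 and 1.41 in VFLP_au, 1.42, 1.41 and 1.83 in injury_only and 3.31, 8.65 and 5.82 in control. Control animals lay above all injured animals, and injury_only animals lay above VFLP_man animals. These 2 genes were paired after their values were seen, so the ratio is a description without a test.

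**Figure D2:**
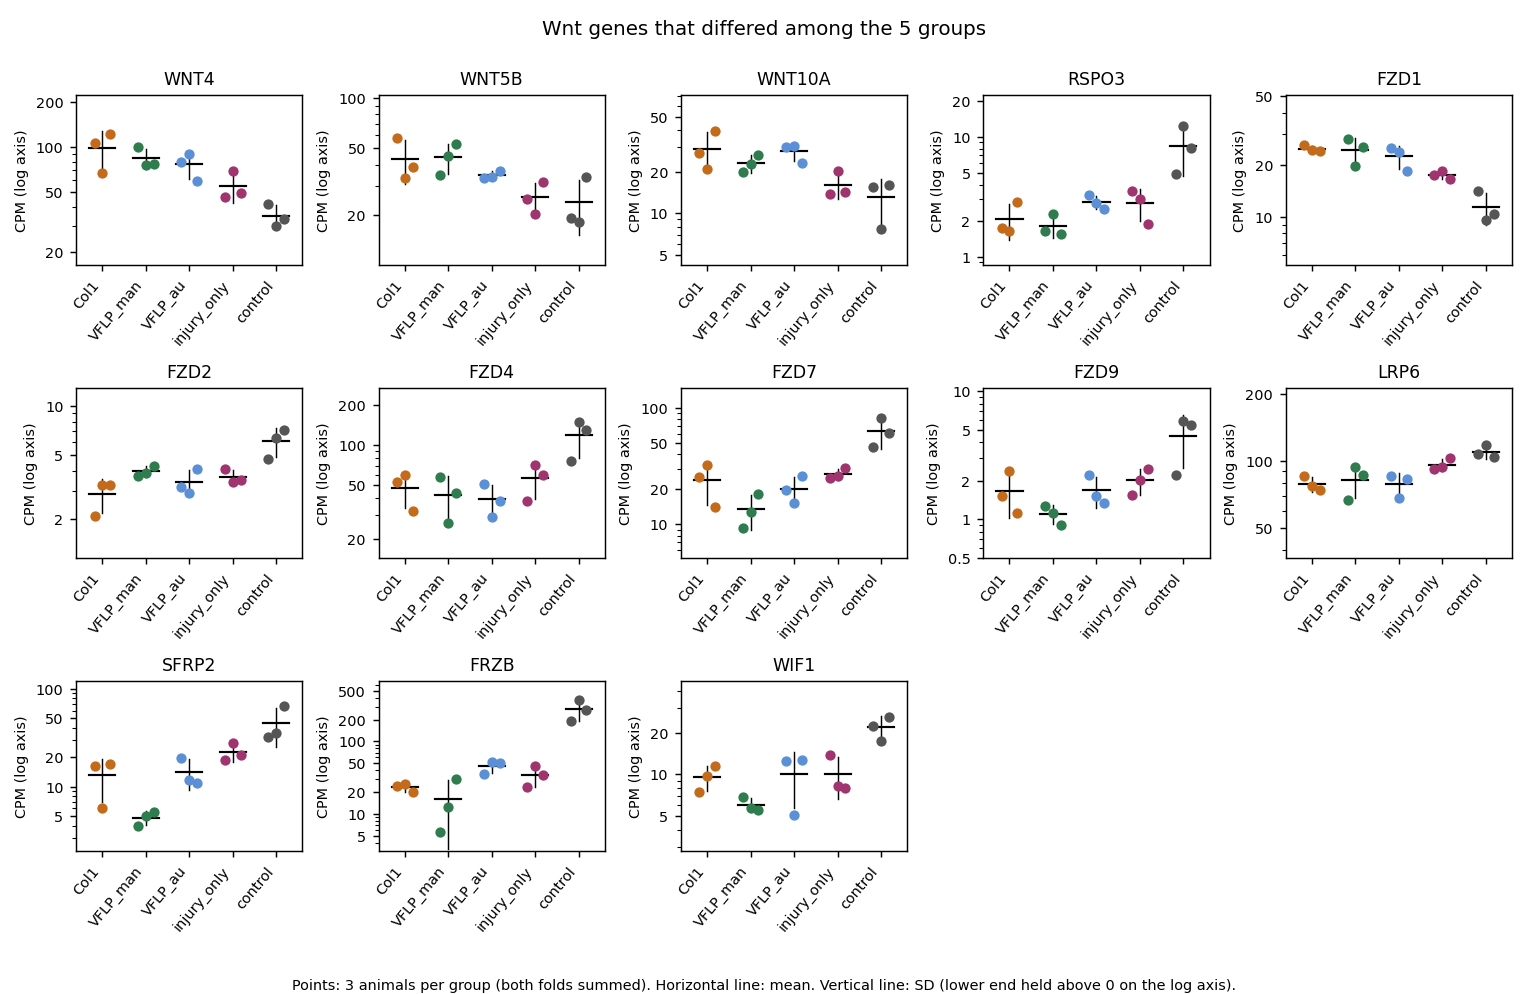
CPM on a log axis of the 13 Wnt genes that differed among the 5 groups, for the 3 animals of each group (points; mean as a horizontal line, SD as a vertical line). FRZB stands highest in control, at 193 to 376 CPM, while FZD1 stands lowest there, at 9.52 to 14 CPM.

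Each injected material was then compared with injury alone, the comparison that asks what an injection did to an injured fold. SFRP2, a secreted Frizzled-related protein made by fibroblasts, was lower in VFLP_man. In the main edgeR fit it was the only one of 40 Wnt genes past the threshold in any of the 3 comparisons. These comparisons lie across batches but for 1 injury_only library, so batch and material can scarcely be told apart in them.

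In VFLP_man against injury_only, 1 of 40 Wnt genes passed, with 1.06% of the 17770 genes tested passing (0.0732% higher and 0.99% lower). At an unadjusted p under 0.05 there were 8 Wnt genes, 20% of those tested, beside 17.2% of all genes. DESeq2 called SFRP2 and FZD7, among 1256 genes in all. With left folds alone edgeR called WNT5B, among 711 genes in all. SFRP2 had 3.99, 5.01 and 5.52 CPM in VFLP_man and 18.8, 27.9 and 21.1 CPM in injury_only. VFLP_man animals were close together and all far below injury_only. The log2 change was -2.21 (SE 0.41, edgeR adjusted p = 0.043). It was -2.05 (edgeR adjusted p = 0.87) with a batch term and -2.14 (edgeR adjusted p = 0.78) with muscle level as a covariate, so the size was kept while the call was lost. Leaving out any 1 of 4 animals also ended the call: the edgeR adjusted p was 0.15 without injury_only animal 2, 0.095 without injury_only animal 3, and 0.17 without VFLP_man animal 1 or without VFLP_man animal 3. The call was lost as well in left folds alone (edgeR adjusted p = 0.084), in right folds alone (0.88) and with limma voom (0.17), while the log2 change lay between -2.33 and -2.04 in all 17 alternatives. Without injury_only animal 2, injury_only animal 3 or VFLP_man animal 1, 0 of all genes passed, and without VFLP_man animal 3, 1 passed. The count was also 0 of all genes in right folds alone, with the batch term and with the muscle covariate. It was 11 with voom and 711 in left folds alone, beside 189 in the main fit. The settings with 0 called therefore say nothing of SFRP2 in particular. Muscle markers took 0.0388 to 0.266% of reads in VFLP_man and 0.566 to 1.21% in injury_only, with 4 of 11 lower and none higher. These shares did not overlap, so muscle level and group can scarcely be told apart in the covariate fit. Fibroblast markers, of which none passed in this comparison, took 0.0742 to 0.113% of reads in VFLP_man and 0.122 to 0.199% in injury_only, and their part in the SFRP2 result was not tested. The animals of the groups did not overlap for 14 of 40 Wnt genes, beside 24.8% of all genes.

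In Col1 against injury_only, 0 of 40 Wnt genes passed by edgeR or DESeq2, and 0% of all genes passed by edgeR. At an unadjusted p under 0.05 there were 8 Wnt genes, 20% of those tested, and 14.2% of all genes. The 3 of smallest p were ligands. WNT4, a ligand of epithelial and stromal development, had 106, 67.1 and 123 CPM in Col1 and 46.3, 69.5 and 49.2 CPM in injury_only (1.8-fold, SE 0.25, edgeR adjusted p = 0.27). Col1 animal 2 overlapped injury_only. WNT10A, a ligand needed for skin appendages and teeth, had 27, 21 and 39.6 CPM in Col1 and 13.8, 20.1 and 14.3 CPM in injury_only (1.83-fold, SE 0.3, edgeR adjusted p = 0.29). WNT5B, a ligand of the polarity branch, had 57.6, 33.6 and 38.9 CPM in Col1 and 25.1, 20.4 and 31.4 CPM in injury_only (1.7-fold, SE 0.27, edgeR adjusted p = 0.29). WNT10A and WNT5B did not overlap between the groups, and 8 of 40 Wnt genes did not, beside 22.7% of all genes.

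In VFLP_au against injury_only, 0 of 40 Wnt genes passed by edgeR or DESeq2 and 0% of all genes by edgeR. At an unadjusted p under 0.05 there were 3 Wnt genes, 7.5% of those tested, and 12.9% of all genes. WNT10A had 30.2, 30.4 and 23.2 CPM in VFLP_au, above the 13.8, 20.1 and 14.3 CPM in injury_only (1.76-fold, SE 0.3, edgeR adjusted p = 0.36). FZD8, a receptor, had 2.53, 2.83 and 4.13 CPM in VFLP_au and 3.75, 4.08 and 6.58 CPM in injury_only, with overlap (log2 -0.59, SE 0.27, edgeR adjusted p = 0.39). The log2 difference of WNT8A, a ligand of the early embryo, was -0.84 (edgeR adjusted p = 0.38), but 83% of the reads at its locus were on the opposite strand and only 230 counted for it in all libraries. WNT8A is therefore uncertain. For 10 of 40 Wnt genes the groups did not overlap, beside 21.3% of all genes.

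By role, the median log2 difference from injury_only over 16 ligands was 0.67 in Col1, 0.53 in VFLP_man and 0.38 in VFLP_au, and over all genes 0, 0 and 0.01. The 3 comparisons share the injury_only animals, and none of these ligands passed.

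**Figure D3:**
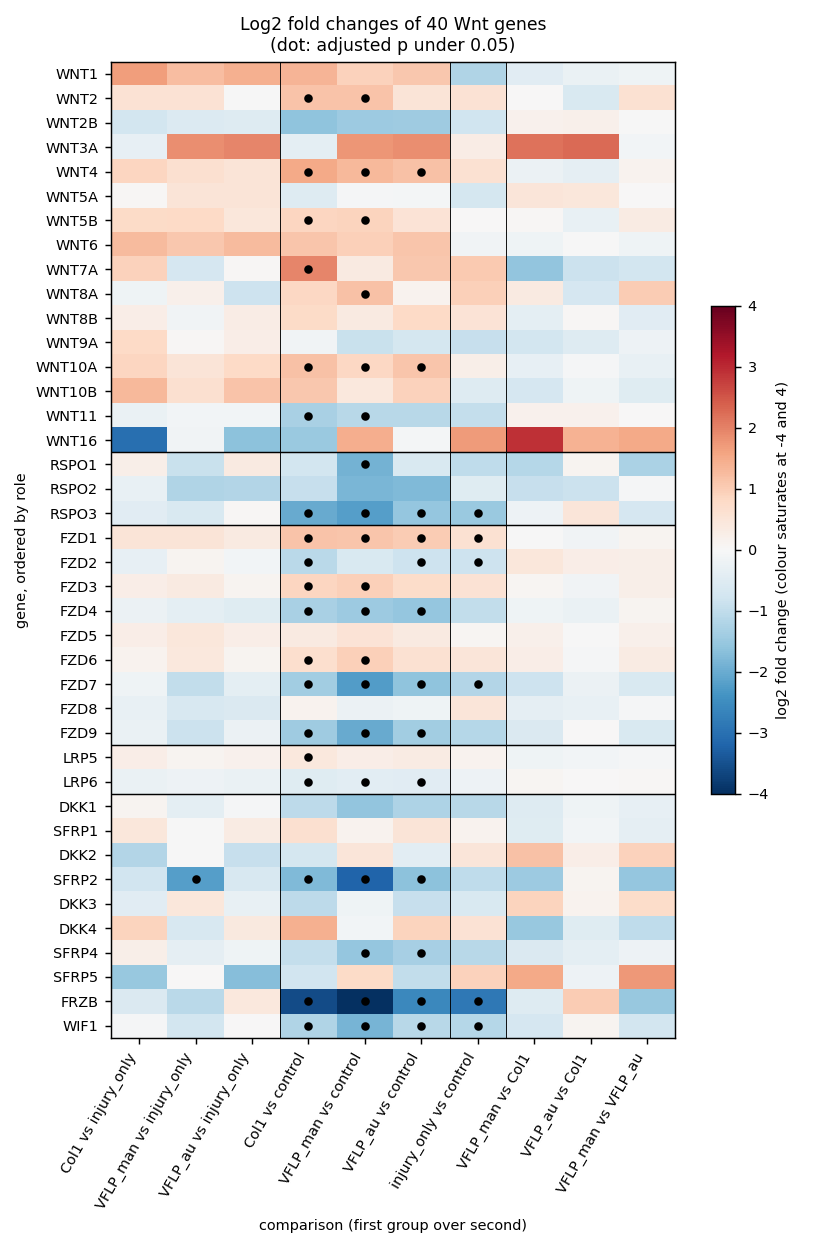
Log2 fold changes of the 40 Wnt genes tested (vertical, ordered by role, black lines between roles) in 10 comparisons (horizontal, first group over second), red for higher and blue for lower. A dot marks an edgeR adjusted p under 0.05; dots lie in the 4 comparisons with control, apart from SFRP2 in VFLP_man against injury_only.

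Between the materials, all within batch D, no Wnt gene passed by edgeR. In VFLP_man against Col1, 0 of 40 passed, with 0% of the 17815 genes tested. SFRP2 had 3.99, 5.01 and 5.52 CPM in VFLP_man and 16.4, 6.12 and 16.9 CPM in Col1, without overlap but with Col1 animal 2 close to VFLP_man (log2 -1.44, SE 0.4, edgeR adjusted p = 0.26). WNT7A, an epithelial ligand, had 1.02, 0.865 and 0.92 CPM in VFLP_man and 1.91, 1.81 and 4.66 CPM in Col1 (log2 -1.57, SE 0.57, edgeR adjusted p = 0.37). DKK4, an inhibitor of LRP5 and LRP6, averaged 0.159 ± 0.0439 CPM in VFLP_man and 0.461 ± 0.364 CPM in Col1 (SD, n = 3 each; log2 -1.52, edgeR adjusted p = 0.37), with 17.6% of its reads on the opposite strand. At an unadjusted p under 0.05 there were 6 Wnt genes, beside 10.3% of all genes, and 7 did not overlap between the groups, beside 15.1%.

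In VFLP_man against VFLP_au, 0 of 40 Wnt genes passed, with 0.0505% of all genes. SFRP2 had 3.99 to 5.52 CPM in VFLP_man and 19.9, 11.7 and 11 CPM in VFLP_au (log2 -1.56, SE 0.41, edgeR adjusted p = 0.17). FRZB had 5.51, 12.5 and 30.5 CPM in VFLP_man and 35.2, 52.6 and 50.5 CPM in VFLP_au (log2 -1.51, SE 0.46, edgeR adjusted p = 0.28). Both genes had groups that did not overlap, and VFLP_man animals spread widely for FRZB. WNT8A had a log2 difference of 1.03 (edgeR adjusted p = 0.42), with the doubt about its strand named above. There were 4 Wnt genes at an unadjusted p under 0.05, beside 8.36% of all genes, and 9 that did not overlap, beside 14.4%. DESeq2 called SFRP2 alone among the Wnt genes in VFLP_man against Col1 and in VFLP_man against VFLP_au.

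In VFLP_au against Col1, 0 of 40 Wnt genes passed by edgeR or DESeq2, with 0% of all genes by edgeR. At an unadjusted p under 0.05 there were 2 Wnt genes, FRZB and WNT3A, beside 4.65% of all genes, and 2 did not overlap, beside 9.25%. FRZB had 35.2, 52.6 and 50.5 CPM in VFLP_au and 24, 25.9 and 19.9 CPM in Col1, without overlap (2-fold higher in VFLP_au, SE 0.45 log2 units, edgeR adjusted p = 0.99). WNT3A, a ligand of the beta-catenin branch, rests on 24 reads in VFLP_au and 5 reads in Col1 (log2 2.27, SE 1, edgeR adjusted p = 0.99). For WNT8A the log2 difference was -0.67 (edgeR adjusted p = 0.99).

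Each material was also compared with uninjured mucosa, which combines injury, injection and batch, and these cannot be told apart. The 3 comparisons use the same control animals. Most ligands called by edgeR were higher than in control, every secreted inhibitor called by edgeR was lower, and receptors went both ways. In Col1, 9 Wnt genes rose and 10 fell out of 40, beside 13.5% and 18.6% of all genes (32.1% in all). In VFLP_man, 8 rose and 11 fell, beside 16.7% and 20.5% of all genes (37.3% in all). In VFLP_au, 3 rose and 10 fell, beside 10.8% and 16.7% of all genes (27.5% in all). Without adjustment, p was under 0.05 for 22 Wnt genes in Col1, 24 in VFLP_man and 19 in VFLP_au, beside 43.2%, 47.4% and 40.5% of all genes. The groups did not overlap for 21, 24 and 25 Wnt genes, beside 45.8%, 48.6% and 42.4% of all genes. The median log2 fold change of all genes was 0.12 for Col1, 0.13 for VFLP_man and 0.11 for VFLP_au, whereas over the 16 ligands it was 0.84, 0.86 and 0.68 and over the 10 secreted inhibitors -1, -0.85 and -1.03.

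Among 16 ligands, edgeR called 5 higher and 1 lower in Col1, 5 higher and 1 lower in VFLP_man, and 2 higher and 0 lower in VFLP_au. At an unadjusted p under 0.05 there were 4 ligands in VFLP_au, and DESeq2 called 4 there, WNT2B and WNT11 among them with levels below control. WNT4 had 106, 67.1 and 123 CPM in Col1, 99.4, 76.4 and 77.6 CPM in VFLP_man and 79.9, 90.4 and 59.5 CPM in VFLP_au, against 41.5, 29.7 and 33 CPM in control. It was above control in all 9 injected animals. WNT4 rose 2.85-fold in Col1 (SE 0.25, edgeR adjusted p = 0.0011), 2.45-fold in VFLP_man (adjusted p = 0.0018) and 2.23-fold in VFLP_au (adjusted p = 0.0064). WNT10A had 19.9, 22.5 and 26.5 CPM in VFLP_man, against 15.5, 7.64 and 16 CPM in control, and rose 2.25-fold in Col1 (edgeR adjusted p = 0.011), 1.77-fold in VFLP_man (0.045) and 2.16-fold in VFLP_au (0.017). The WNT10A calls rest on single animals. In VFLP_man the edgeR adjusted p was 0.16 without control animal 2, and 0.058, 0.082 and 0.13 without VFLP_man animal 1, 2 or 3, and it was 0.058 with the replicate number as a block. In VFLP_au the edgeR adjusted p was 0.068 without control animal 2, and 0.051 and 0.055 without VFLP_au animal 1 or 2. In Col1 it was 0.053 without Col1 animal 3 (edgeR).

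WNT5B rose 1.81-fold in Col1 and 1.86-fold in VFLP_man, though control animal 3, at 34 CPM, lay above Col1 animal 2, at 33.6 CPM. WNT2, a ligand of lung and stromal development, rose 2.2-fold in Col1 and 2.21-fold in VFLP_man. Its calls (edgeR adjusted p = 0.045 and 0.039) were lost in 11 and 9 of 16 alternatives, fits without single animals among them. WNT7A rose 3.84-fold in Col1 (edgeR adjusted p = 0.024). It did not pass against control in VFLP_man or VFLP_au, and neither did its difference between Col1 and those materials. WNT11, a ligand of the polarity branch, was the one ligand called lower by edgeR, 2.44-fold in Col1 and 2.17-fold in VFLP_man. The WNT11 calls (edgeR adjusted p = 0.027 and 0.043) were lost in 7 and 8 of 16 alternatives. DESeq2 also called WNT2B in Col1 and VFLP_man (edgeR log2 -1.62 and -1.45, adjusted p = 0.053 and 0.07) and WNT9A in VFLP_man (edgeR log2 -0.9, adjusted p = 0.076). The call of WNT8A in VFLP_man (edgeR adjusted p = 0.027) was lost with unstranded counts and without the filter on low counts. The other ligands tested, WNT1, WNT2B, WNT3A, WNT5A, WNT6, WNT8B, WNT9A, WNT10B and WNT16, passed in none of the main edgeR comparisons. Some were called under other settings, such as WNT1, WNT2B and WNT10B in Col1 against control with right folds alone.

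RSPO3 had 1.72, 1.62 and 2.88 CPM in Col1, 1.65, 2.26 and 1.54 CPM in VFLP_man and 3.24, 2.83 and 2.52 CPM in VFLP_au, against 4.91, 12.4 and 8.1 CPM in control. Every injected animal was below every control animal. RSPO3 fell 4.06-fold in Col1 (SE 0.37, edgeR adjusted p = 0.002), 4.62-fold in VFLP_man (0.00083) and 2.92-fold in VFLP_au (0.01). RSPO1, another amplifier, fell 3.67-fold in VFLP_man (edgeR adjusted p = 0.03), a call lost in 8 of 16 alternatives. RSPO2 passed in none of the main edgeR comparisons.

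Among 9 receptors, 3 rose and 4 fell in Col1, 3 rose and 3 fell in VFLP_man, and 1 rose and 4 fell in VFLP_au. FZD1 had 25.9, 24.5 and 23.9 CPM in Col1, 28.1, 19.6 and 25.5 CPM in VFLP_man and 24.9, 23.7 and 18.5 CPM in VFLP_au, against 14, 9.52 and 10.4 CPM in control. All 9 injected animals exceeded control, and FZD1 rose 2.19-fold in Col1 (SE 0.18, edgeR adjusted p = 9e-04), 2.18-fold in VFLP_man (0.00056) and 2-fold in VFLP_au (0.0027). FZD3 and FZD6, receptors known from cell polarity, rose 1.83-fold and 1.59-fold in Col1 and 1.94-fold and 1.92-fold in VFLP_man. The FZD6 call in Col1 (edgeR adjusted p = 0.044) was lost in 11 of 16 alternatives.

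FZD7 had 25.7, 32.3 and 14.1 CPM in Col1, 9.31, 12.9 and 18.2 CPM in VFLP_man and 19.7, 15.3 and 26.1 CPM in VFLP_au, against 46.3, 82.4 and 60.6 CPM in control. No injected animal reached control, and FZD7 fell 2.62-fold in Col1 (SE 0.33, edgeR adjusted p = 0.0073), 4.65-fold in VFLP_man (4e-04) and 3.07-fold in VFLP_au (0.0049). FZD4, the receptor of the vascular ligand norrin, had 53, 59.6 and 32.1 CPM in Col1, 57.8, 26 and 44.2 CPM in VFLP_man and 51.4, 29.2 and 38.1 CPM in VFLP_au, against 75.6, 148 and 131 CPM in control. It fell 2.45-fold in Col1, 2.74-fold in VFLP_man and 2.96-fold in VFLP_au (edgeR adjusted p = 0.0096 in VFLP_au). Endothelial markers moved with it: 4 of 7 were lower in Col1 and 7 of 7 in VFLP_man and VFLP_au, taking 0.0111 to 0.0147%, 0.00715 to 0.0108% and 0.00826 to 0.0152% of reads, against 0.0174 to 0.0452% in control, with no marker at 0. Their part in the FZD4 result was not tested.

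FZD9 had 1.28, 1.12 and 0.904 CPM in VFLP_man, against 2.23, 5.86 and 5.44 CPM in control, and fell 4.05-fold there (SE 0.41, edgeR adjusted p = 0.0024), 2.7-fold in Col1 and 2.65-fold in VFLP_au. FZD2 had 2.1, 3.27 and 3.28 CPM in Col1, against 4.74, 6.32 and 7.13 CPM in control, and fell 2.1-fold there (edgeR adjusted p = 0.0056) and 1.77-fold in VFLP_au. FZD5 and FZD8 passed in none of the main edgeR comparisons, while DESeq2 called FZD5 in VFLP_man against control. Of the co-receptors, LRP6 fell 1.39-fold in Col1, 1.32-fold in VFLP_man and 1.37-fold in VFLP_au, its levels ranging from 66.8 to 94 CPM in the 9 injected animals and from 104 to 118 CPM in control. LRP5 rose 1.35-fold in Col1 (edgeR adjusted p = 0.012).

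Among 10 secreted inhibitors, edgeR called 3 lower in Col1, 4 in VFLP_man and 4 in VFLP_au, and none higher. FRZB fell 12.1-fold in Col1 (SE 0.52 log2 units, edgeR adjusted p = 0.00061), 17.3-fold in VFLP_man (SE 0.54, adjusted p = 0.00016) and 6.04-fold in VFLP_au (SE 0.5, adjusted p = 0.0037). The highest injected animal had 52.6 CPM and the lowest control animal 193 CPM. SFRP2 had 3.99 to 5.52 CPM in VFLP_man, against 32.4, 35 and 66.3 CPM in control, and fell 9.14-fold there (SE 0.42, edgeR adjusted p = 0.00017), 3.38-fold in Col1 (0.006) and 3.1-fold in VFLP_au (0.011). WIF1 had 6.85, 5.69 and 5.57 CPM in VFLP_man, against 22.4, 17.5 and 26.1 CPM in control, and fell 3.61-fold there (SE 0.35, edgeR adjusted p = 0.0015), 2.29-fold in Col1 and 2.14-fold in VFLP_au.

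SFRP4, a secreted Frizzled-related protein, fell 2.9-fold in VFLP_man and 2.52-fold in VFLP_au. Its calls (edgeR adjusted p = 0.017 and 0.042) were lost in 5 and 11 of 16 alternatives. SFRP1, SFRP5 and the 4 DKK genes passed in none of the main edgeR comparisons. DESeq2 and voom called DKK3 in Col1 against control, and voom called DKK1 in VFLP_man against control. For SFRP1, the levels were 83.9, 54.7 and 92 CPM in Col1, 31.9, 46.2 and 85.6 CPM in VFLP_man, 53.3, 89.9 and 68 CPM in VFLP_au, 43, 82.4 and 43.6 CPM in injury_only and 60.3, 45.5 and 43.3 CPM in control, and all groups overlapped with control.

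These calls depend on how batch, muscle and folds are treated. A batch term, which rests on 1 library here, left 0 Wnt genes called in each of the 3 comparisons. It left 0, 29 and 0 of all genes in Col1, VFLP_man and VFLP_au, beside 5702, 6623 and 4884 in the main fit. With muscle level as a covariate 0 Wnt genes were called as well, and no gene at all. These losses therefore say little of the Wnt genes in particular. Muscle markers took at least 2.24% of reads in control animals and at most 0.838% in injected animals. Muscle level and group can therefore scarcely be told apart in that fit. Muscle markers were lower in 10 of 11 cases in Col1, 10 of 11 in VFLP_man and 9 of 11 in VFLP_au, and fibroblast markers in 11, 10 and 7 of 11. Superficial squamous markers went the other way and took more reads in every injected animal than in any control animal. Of these 7 markers, 1 passed as higher in Col1 and 0 in VFLP_man and VFLP_au. Their part in the ligand results was not tested. The log2 change of FRZB under the muscle covariate was -2.39 in Col1, -2.4 in VFLP_man and -1.59 in VFLP_au, and that of FZD7 was -0.13, -0.28 and -0.58. For WNT4 it was 0.76 in Col1, 0.21 in VFLP_man and 0.58 in VFLP_au, against 1.51, 1.29 and 1.16 without the covariate. For WNT10A it was 0.69, 0.16 and 0.75, against 1.17, 0.82 and 1.11 without it. Without control animal 2, 11 Wnt genes were called in Col1, among 3658 genes in all, and 11 in VFLP_man, among 4438. In Col1 the count was 11 without Col1 animal 3 (4386 in all) and 12 without control animal 3 (4529 in all). In VFLP_man it was 12 without VFLP_man animal 3 (5420 in all). In VFLP_au it was 7 without VFLP_au animal 2 (3040 in all). Counts over all genes thus fell as well.

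In a test over all 5 groups, 13 of 40 Wnt genes passed, beside 28.4% of all genes: the ligands WNT4, WNT5B and WNT10A, the R-spondin RSPO3, the receptors FZD1, FZD2, FZD4, FZD7 and FZD9, the co-receptor LRP6 and the inhibitors SFRP2, FRZB and WIF1. FRZB had the smallest p (edgeR adjusted p = 0.00025), followed by SFRP2 (0.0012) and FZD7 (0.0022). FRZB averaged 23.3 ± 3.06 CPM in Col1, 16.2 ± 12.9 in VFLP_man, 46.1 ± 9.53 in VFLP_au, 34.5 ± 10.8 in injury_only and 281 ± 91.4 in control (SD, n = 3 each). Its means were lowest in VFLP_man, then Col1, injury_only and VFLP_au, and neighbours in that order overlapped, while control lay apart. SFRP2 averaged 13.1 ± 6.08 CPM in Col1, 4.84 ± 0.779 in VFLP_man, 14.2 ± 4.96 in VFLP_au, 22.6 ± 4.73 in injury_only and 44.5 ± 18.9 in control. Without control animal 2 or animal 3, 7 Wnt genes passed this test, among 2924 and 3247 genes in all, beside 5046 with every animal. With muscle level as a covariate no Wnt gene passed, and no gene at all did.

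Both folds of an animal could be compared in the 14 animals whose folds lay in 1 batch. Right against left folds gave 0 of 38 Wnt genes by edgeR or DESeq2, beside 0% of 16819 genes by edgeR. Unadjusted p-values were under 0.05 for 7 Wnt genes, 18.4% of those tested, and 7.98% of all genes. WNT8B, a ligand of the developing brain, was lower in the right fold in 13 of 14 animals (log2 -0.59, SE 0.15, edgeR adjusted p = 0.6), but 40.4% of reads at its locus were on the opposite strand. FZD6 was lower in the right fold in 11 of 14 (log2 -0.33, SE 0.12, edgeR adjusted p = 0.6), and SFRP1 in 12 of 14 (log2 -0.26, SE 0.093, edgeR adjusted p = 0.6).

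Folds of the same animal could differ widely, and over the 14 animals FRZB, SFRP2 and RSPO3 had no common direction. The median over animals of the absolute log2 ratio of right to left was 1.06 for FRZB, 1.04 for SFRP2 and 0.85 for RSPO3, while the median of these values was 0.36 over 38 Wnt genes and 0.26 over 16819 genes. FRZB and SFRP2 were each higher on the right in 7 of 14 animals, and RSPO3 in 8 of 14. SFRP2 had 38.1 CPM in the right fold and 2.4 CPM in the left fold of VFLP_au animal 1, where the folds of control held 24.1 to 95.7 CPM and those of VFLP_man 2.19 to 8.41 CPM. In control animals 1, 2 and 3, FRZB had 337, 423 and 396 CPM on the right and 76.2, 331 and 171 CPM on the left. RSPO3 had 9.1, 15.6 and 10.9 CPM on the right and 1.45, 9.92 and 5.61 CPM on the left. Both genes were thus higher on the right in every control animal, whereas SFRP2 was higher on the left in control animal 1. Muscle markers took 3.55, 4.29 and 3.58% of reads in those right folds and 0.758, 3.2 and 1.91% in those left folds. Their part in these values was not tested.

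The ligands WNT10A, WNT2 and WNT4 were lower in the right fold than in the left fold of every control animal, most widely in control animal 2. Its right fold had 1.31 CPM of WNT10A, 1.31 CPM of WNT2 and 9.91 CPM of WNT4, and its left fold 11.1, 7.72 and 40 CPM. In control animals 1 and 3, WNT4 had 34.1 and 16.7 CPM on the right and 50 and 43.4 CPM on the left. WNT10A had 11.1 and 8.04 CPM on the right and 20.2 and 21.1 CPM on the left there. Basal epithelial markers took 0.22, 0.0217 and 0.0964% of reads in the right folds of control animals 1, 2 and 3. They took 0.455, 0.152 and 0.397% in the left folds, and their part in these ligand values was not tested. With the right folds alone, 13 Wnt genes passed in injury_only against control, among 4348 genes in all. With the left folds alone 0 of all genes passed, so the left folds say nothing of the Wnt genes in particular.

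**Figure D4:**
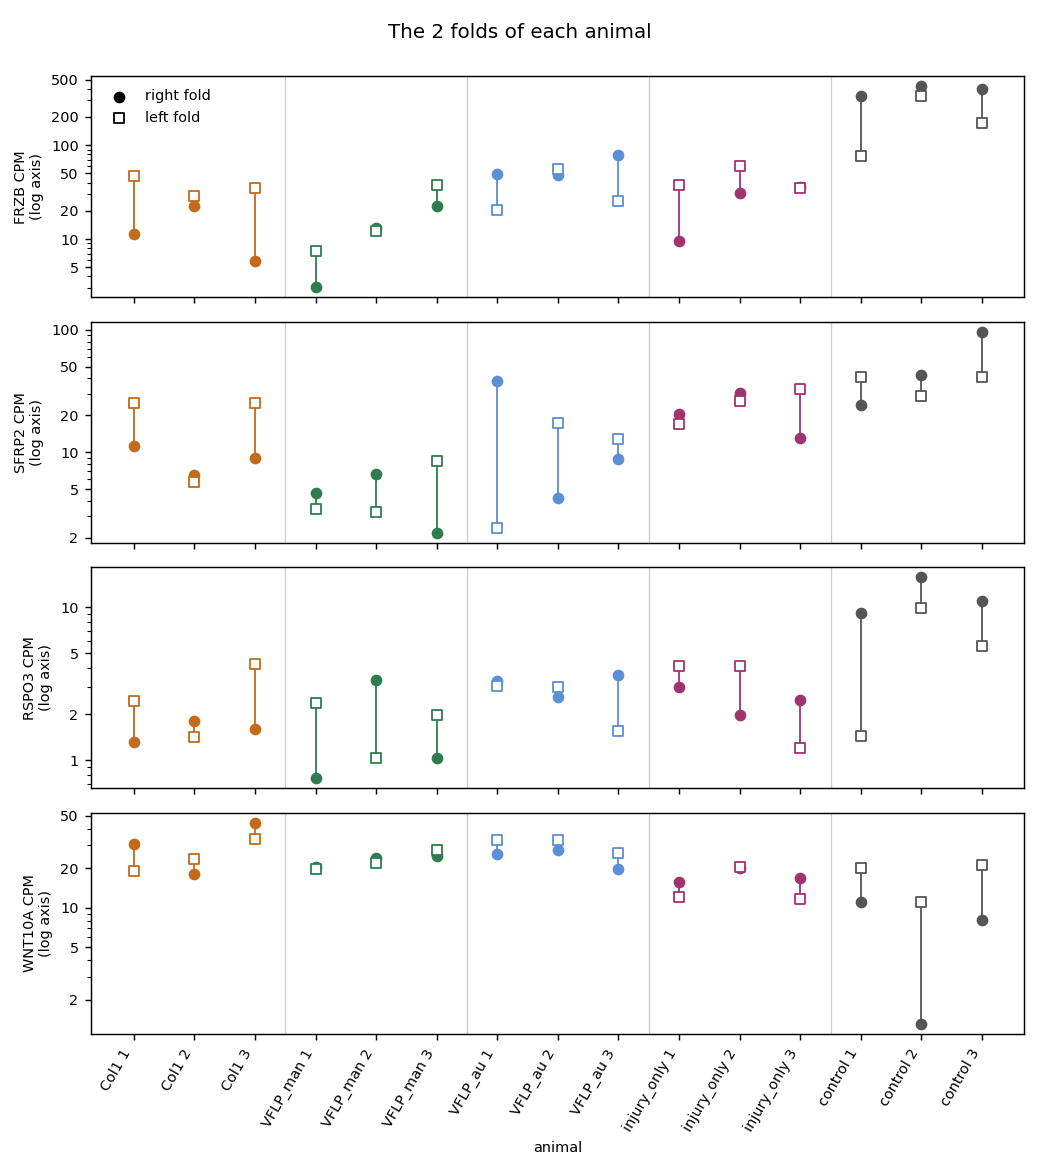
CPM on log axes of FRZB, SFRP2, RSPO3 and WNT10A in the right fold (filled circle) and left fold (open square) of each of the 15 animals, joined by a line. The SFRP2 values of VFLP_au animal 1 are 38.1 CPM on the right and 2.4 CPM on the left, and the FRZB values of the control folds range from 76.2 to 423 CPM.

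Further genes of the pathway, in 5 lists of intracellular parts, targets, other surface proteins, polarity genes and secretion genes, were counted in the same comparisons. In injury_only against control, where 22.1% of all genes passed, 1 of 14 feedback targets rose and 2 fell. AXIN2, a scaffold and target that restrains the pathway, had 7.42, 8.97 and 6.95 CPM in injury_only and 16.5, 32.5 and 19.5 CPM in control (2.81-fold lower, SE 0.29, edgeR adjusted p = 0.0051). SP5, a transcription factor induced by beta-catenin, had 1.06, 2.24 and 0.658 CPM in injury_only and 6.7, 13.9 and 7.07 CPM in control (6.34-fold lower, SE 0.54, edgeR adjusted p = 0.0059). RNF43, a target whose product removes Frizzled receptors from the surface and which R-spondins hold back, had 20.5, 18.8 and 19.5 CPM in injury_only and 10.9, 5.81 and 6.67 CPM in control (2.43-fold higher, SE 0.23, edgeR adjusted p = 0.0035). None of the 3 genes overlapped between the groups, and they did not move in 1 direction.

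Among 20 intracellular genes, 3 rose and 1 fell in injury_only. DVL1, which relays the signal from Frizzled receptors, had 27.3, 36 and 38.7 CPM in injury_only and 88.3, 159 and 118 CPM in control, and fell 3.31-fold (SE 0.2, edgeR adjusted p = 0.0011). Its relative DVL2 rose 1.53-fold and the beta-catenin cofactor BCL9 1.41-fold. Among 13 other surface proteins, 1 rose and 3 fell: RNF43 rose, and ADGRA2 and RECK, which together serve WNT7A and WNT7B in brain endothelium in mice, fell 2.62-fold and 2.48-fold. Among 11 polarity genes, 4 rose and 1 fell, with CELSR1 at 153, 112 and 102 CPM in injury_only and 64.7, 26.8 and 52.2 CPM in control (2.57-fold higher, SE 0.27, edgeR adjusted p = 0.0055), and INVS 1.72-fold and INTU 2.17-fold higher. None of 7 secretion and release genes passed in edgeR, where 4 had an unadjusted p under 0.05, and DESeq2 called 2. Ciliated and gland markers took more reads in injury_only, as given above, and their part in the values of these lists was not tested.

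In edgeR, no gene of the 5 lists passed in any material against injury_only or between materials. Of 60 such genes, an unadjusted p was under 0.05 for 16 in Col1, 14 in VFLP_man and 11 in VFLP_au against injury_only, beside 14.2%, 17.2% and 12.9% of all genes. DESeq2 called 4, 3 and 1 of them, among 369, 1256 and 196 genes in all. Of 61 between materials, it was under 0.05 for 5 in VFLP_man against Col1, 6 in VFLP_au against Col1 and 5 in VFLP_man against VFLP_au, beside 10.3%, 4.65% and 8.36% of all genes. DESeq2 called 1, 0 and 1, among 389, 35 and 392 genes in all. Against control, where 32.1% of all genes passed in Col1, 37.3% in VFLP_man and 27.5% in VFLP_au, the 14 feedback targets had 1 higher and 3 lower in Col1, 2 higher and 2 lower in VFLP_man and 1 higher and 2 lower in VFLP_au. Of 60 genes of the 5 lists together, 25 passed in Col1, 28 in VFLP_man and 22 in VFLP_au. SP5 fell 16.1-fold, 34.8-fold and 12-fold in those groups, AXIN2 3.24-fold, 3.54-fold and 2.27-fold, and RNF43 rose 2.54-fold, 2.89-fold and 2.34-fold. Of 20 intracellular genes, 6 rose and 3 fell in Col1, 6 rose and 2 fell in VFLP_man, and 4 rose and 2 fell in VFLP_au. DVL1 fell 3.57-fold in Col1, 4.94-fold in VFLP_man and 2.95-fold in VFLP_au. Of 12 other surface proteins, 2 rose and 3 fell in Col1, 2 rose and 3 fell in VFLP_man, and 1 rose and 3 fell in VFLP_au. Of 11 polarity genes, 4 rose and 2 fell in Col1, 6 rose and 2 fell in VFLP_man, and 5 rose and 2 fell in VFLP_au, with INVS 1.77-fold, 1.69-fold and 1.52-fold higher. Of 7 secretion and release genes, 2 fell in Col1, 4 fell in VFLP_man, and 2 fell and 1 rose in VFLP_au, with GPC6, a cell-surface heparan sulfate proteoglycan, 4.71-fold, 9.52-fold and 4.86-fold lower. Muscle markers moved with these genes too, as given above, and batch cannot be told apart from material in these comparisons with control.

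**Figure D5:**
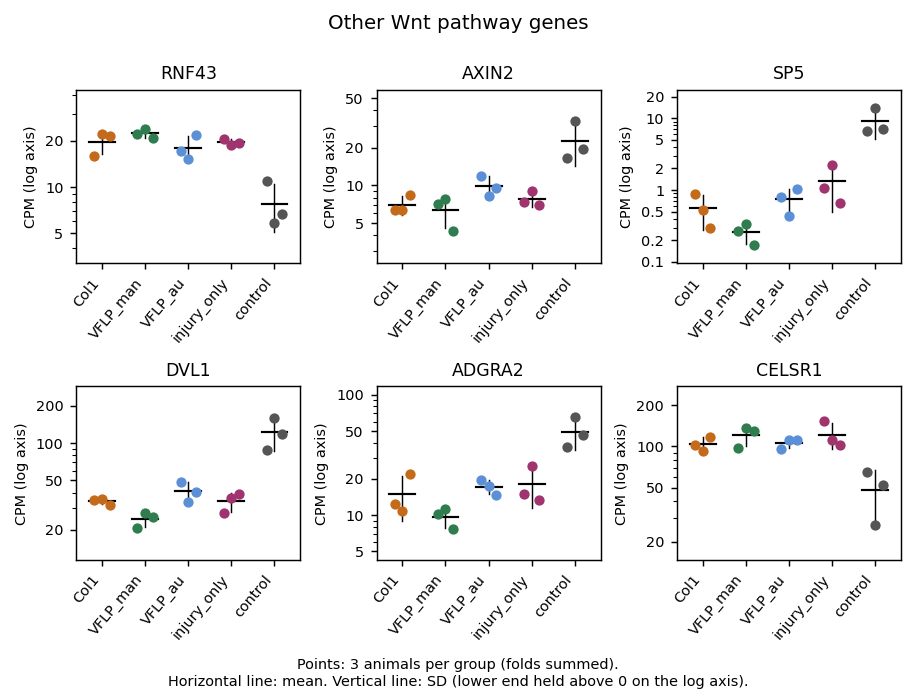
CPM on a log axis of 6 other Wnt pathway genes in the 3 animals of each group (points; mean as a horizontal line, SD as a vertical line). SP5, AXIN2, DVL1 and ADGRA2 stand highest in control, with DVL1 at 88.3 to 159 CPM there, while RNF43 and CELSR1 stand lowest there.

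The 3 Wnt genes left untested had very few reads. WNT3 had 24 reads in all libraries, none of them in Col1 or control, where 3 counts of the group total would be 0.022 and 0.023 CPM. WNT9B had 25 reads in all. RSPO4 had 3 reads, 2 in injury_only and 1 in control, and the limit was 0.022 CPM in Col1, 0.018 in VFLP_man and 0.022 in VFLP_au. These limits cover counting error alone.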

How the data were processed

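Per the submitters' processing notes the authors aligned reads with STAR 2.7.10b, and the deposited values are its raw counts of reads per gene, with no normalization. Which build and gene models were used is not stated in the sources used here. The column for reads whose second mate has the gene's strand was taken, as the library kit (KAPA mRNA HyperPrep, 100 ng of RNA) implies, and 4 entries that name no gene (23.2 to 44.7% of reads per library) were left out. Gene names were looked up in the RefSeq table of mOryCun1.1 (43 of 43 Wnt symbols found), which served for names and neighbours alone.

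Both folds of an animal were summed and 15 animals tested with the quasi-likelihood method of edgeR 4.0.16 under R 4.3.3, after filterByExpr at a minimum count of 10 and TMM scaling, with Benjamini-Hochberg adjustment over all genes tested and 0.05 as the threshold. Materials against injury_only or control and the 5 groups together used 17770 genes and no batch term. Injury_only against control and materials against each other used 17815 genes, 16 units (1 injury_only animal divided by batch) and batch as a covariate. Right against left folds used 28 libraries of 14 animals and 16819 genes. CPM are TMM-scaled, SD is over 3 animals, and standard errors on the log2 scale are approximate, taken as the change divided by the root of its F statistic. Ratios of 2 genes use reads. A group without a read is given the limit of 3 counts over the group.

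Alternatives were DESeq2 1.42.0 and its size factors, no filter on low counts, unstranded counts, the replicate number as a block, left or right folds alone, batch handled the other way, muscle level as a covariate, limma 3.58.1 voom with duplicateCorrelation, and each animal left out. Leaving out the injury_only library of batch D was added after the data were seen. Fits were tested on simulated counts with large known changes in genes with many reads. These had the same dispersion for all genes and no batch or composition effect. That does not cover changes as small as those of most Wnt genes here. The Wnt genes, the other lists and the rule for genes named (up to 8 Wnt genes past the threshold by smallest p, otherwise the 3 of smallest p, and up to 3 genes of each other list) were chosen with earlier results of these data known. In comparisons with control, genes past the first 8 are named beside their role, after their values were seen.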

Additional observations from a re-analysis of the deposited data

How the results depend on the processing

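Counts of Wnt genes past the threshold moved with several settings. DESeq2 called 13 in injury_only against control (6 in edgeR), 2 in VFLP_man against injury_only (1), 1 in VFLP_man against Col1 (0), 1 in VFLP_man against VFLP_au (0) and 20 over the 5 groups (13). Left folds alone gave 0 in injury_only against control, 0 in Col1, 8 in VFLP_man and 4 in VFLP_au against control (19, 19 and 13) and 5 over the 5 groups. Right folds alone gave 13 in injury_only against control and 0 in VFLP_man against injury_only. The batch term added gave 0 in VFLP_man against injury_only, 0 in each material against control and 2 over the 5 groups. Muscle level as a covariate gave 3 in injury_only against control, 0 in VFLP_man against injury_only, 0 in each material against control and 0 over the 5 groups. Voom gave 0 in VFLP_man against injury_only. Counts over all genes moved too: DESeq2 called 5488 genes in injury_only against control (3933 in edgeR), 1256 in VFLP_man against injury_only (189), 389 in VFLP_man against Col1 (0), 392 in VFLP_man against VFLP_au (9) and 7826 over the 5 groups (5046). In injury_only against control, left folds alone called 0 of all genes and right folds alone 4348. In VFLP_man against injury_only, right folds alone and the batch term added each called 0 of all genes. The batch term added called 0, 29 and 0 in Col1, VFLP_man and VFLP_au against control, and 1535 over the 5 groups. Muscle level as a covariate gave 1404 of all genes in injury_only against control. It gave 0 in VFLP_man against injury_only, in each material against control and over the 5 groups. The cause was not tested, and the batch term added rests on 1 library.

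Leaving out 1 animal gave 2 to 7 in injury_only against control, 0 to 1 in VFLP_man against injury_only, 11 to 17 in Col1, 11 to 18 in VFLP_man and 7 to 13 in VFLP_au against control, and 7 to 16 over the 5 groups. Every other count of Wnt genes stayed at 0. Counts over all genes moved as well. They ran from 1733 to 4286 in injury_only against control and from 0 to 300 in VFLP_man against injury_only. Against control they ran from 3658 to 6221 in Col1, 4438 to 6762 in VFLP_man and 2528 to 5549 in VFLP_au. Over the 5 groups they ran from 2924 to 5191. Of single genes, FZD8 in VFLP_au against injury_only turned to 0.08 with the batch term, LRP6 in Col1 and VFLP_man against control to 0.04 and 0.34 and WNT7A in Col1 against control to -0.09 with muscle level, and FRZB in VFLP_au against Col1 to -0.12 in left folds (log2). Over 89 results of single genes and their alternatives, 1180 of 1557 values kept direction and side of the threshold, 370 were no longer past it, 2 came past it and 5 changed sign.

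The replicate block gave 6 in injury_only against control, 1 in VFLP_man against injury_only, 17, 17 and 12 in Col1, VFLP_man and VFLP_au against control, and 11 over the 5 groups. Replicate numbers did not pair the animals: the correlation of deviations between animals of the same number had a median of -0.0448 (-0.562 to 0.359, 30 pairs), and 4 of 15 animals correlated best with their own number. Depth limits WNT3A and RSPO2, which rest on 71 and 129 reads over all libraries.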

Other observations

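WNT16, a ligand with few reads, was at 0.0573, 0.121 and 0.5 CPM in Col1, 0.818, 3.17 and 1.21 CPM in VFLP_man, 0.457, 0.0184 and 1.33 CPM in VFLP_au, 3.53, 1.16 and 1.01 CPM in injury_only and 0.104, 1.05 and 0.802 CPM in control. Col1 animals lay below injury_only animals (log2 -3.03, SE 1.2, edgeR adjusted p = 0.32) and below VFLP_man animals, without overlap, and neither difference passed. It was chosen here after its values were seen.

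The ratio of FRZB to SFRP1 reads within an animal, chosen after values were seen and given without a test, was 0.286, 0.474 and 0.217 in Col1, 0.172, 0.272 and 0.357 in VFLP_man, 0.659, 0.585 and 0.743 in VFLP_au, 0.547, 0.548 and 0.8 in injury_only and 3.21, 8.27 and 6.34 in control. Both genes encode secreted Frizzled-related proteins. Control animals all lay above the injured animals.

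WNT10A and WNT6 are neighbours in the RefSeq table. WNT6, a ligand, averaged 1.68 CPM in Col1, 1.49 CPM in VFLP_man, 1.66 CPM in VFLP_au, 0.706 CPM in injury_only and 0.776 CPM in control. WNT6 passed in none of the main edgeR comparisons, while WNT10A passed in each material against control.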
